A study of Mus musculus with 28 samples.

Results

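Fatty acid oxidation and the classical target genes of the peroxisome proliferator-activated receptors (PPARs) were followed here through 39 genes in 28 libraries of gastric corpus epithelium. The genes were taken by symbol from the deposited count table of 49492 genes, and all 39 were found in it. Of these, 38 were among the 15812 genes that passed the filter on low counts and were tested. Ucp3 did not pass, and Vnn3 passed only through the villin-PPARD mice of 55 weeks, so Vnn3 is described by its counts, with no test, and the counts of members below are over the other 37 tested.

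Epithelial cells had been scraped by hand from the gastric corpus, where acid is made, in mice with a villin-PPARD transgene and in wild-type (WT) littermates. At 10 weeks of age there were 5 libraries of villin-PPARD and 5 of WT mice, at 25 weeks 4 and 4, and at 55 weeks 5 and 5. The labels do not say whether each library is a separate mouse, so p-values measure the spread between these libraries, which may be technical. The villin promoter is used mainly to drive genes in intestinal epithelium, and the labels name no other allele or agent in any group, nor the strain, the species of the PPARD sequence or the number of founder lines. Means are given ± SD over these libraries and log2 differences ± SE. Each library held 10982888 to 30891108 counts of polyadenylated RNA.

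WT replicates 2 and 3 of 10 weeks differed far less than other pairs of a group, with a chi-square per degree of freedom of 4.12 against 14.3 to 157 in the rest of 52 pairs. They were kept as separate libraries because their difference still exceeded sampling noise, which cannot show whether they came from separate mice. Column names place 10-week replicates 4 and 5 and all 55-week libraries in a second library group, so that a change between 25 and 55 weeks and the library group cannot be told apart. The column of WT replicate 3 of 25 weeks is marked as a replacement and stands in neither library group. Without it 6 instead of 10 members were higher at 25 weeks, and the calls of Acadl, Acot2, Angptl4, Etfdh, Fabp4, Fabp5 and Ucp2 at that age were lost. Over the fits that left out 1 library of that age, 2684 to 3432 of all genes were higher, beside 3318 with every library. Villin itself, encoded by Vil1, was higher in villin-PPARD mice at each age, and Ppard was higher by 0.56, 0.31 and 0.23 on the log2 scale at 10, 25 and 55 weeks (adjusted p = 2.5e-05, 0.018 and 0.031). The libraries held the markers of corpus epithelium: summed CPM (counts scaled to the library size) of 11 parietal cell genes were 9466 to 11780 in villin-PPARD and 15720 to 18190 in WT mice of 10 weeks. By 55 weeks they were 723 to 1018 in villin-PPARD and 6365 to 10620 in WT mice, and 6 chief cell genes summed to 338 to 1357 in villin-PPARD and 23420 to 87250 in WT mice. Mitochondrially encoded genes took a median of 3.20%, 4.81% and 3.25% of counts in villin-PPARD mice of 10, 25 and 55 weeks, against 7.86%, 10.7% and 12.3% in WT mice. The part of these cell and mitochondrial differences in the results below was not tested, and in bulk RNA fewer cells of a type and less RNA per cell cannot be told apart.

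**Figure D1:**
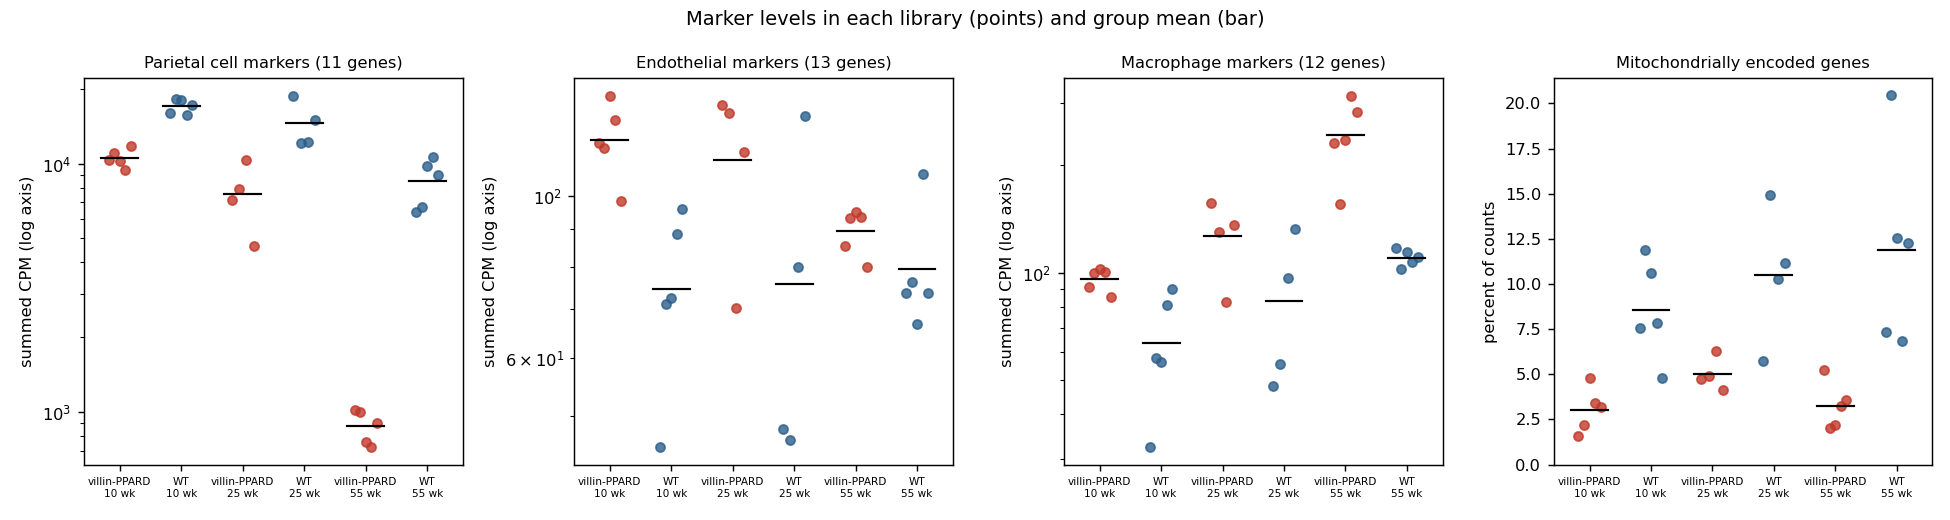
Summed CPM of parietal, endothelial and macrophage marker genes (log axes) and the percent of counts in mitochondrially encoded genes, 1 point per library, with villin-PPARD left of WT at each age and a bar at the group mean. Parietal markers of villin-PPARD mice lay at 723 to 1018 CPM at 55 weeks, below all WT libraries, while macrophage markers lay at 155 to 313 CPM, above all WT libraries of that age.

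PPAR alpha, delta and gamma are nuclear receptors that bind fatty acids and their derivatives and, as partners of the retinoid X receptor, activate genes through repeats of a short DNA element. Many of their known targets take up, bind, store or burn fatty acids. In beta-oxidation, fatty acids are activated to acyl-CoA, carried into mitochondria by the carnitine shuttle and shortened in rounds of dehydrogenation, hydration, a further dehydrogenation and thiolysis, while electron-transferring flavoprotein passes electrons to the respiratory chain. Parietal cells, which pump acid, are rich in mitochondria.

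The genes did not move as a block. Vnn1 was the single member that rose at all 3 ages, while Cd36, Fabp3, Acsl1, Hadh, Echs1 and Eci1 fell at all 3. At 10 weeks 10 of the 37 members were higher in villin-PPARD mice, where 17.9% of all genes tested were, and 8 were lower, where 16.2% were. At 25 weeks 10 were higher (21% of all genes) and 13 lower (18.6%). At 55 weeks 5 were higher (31.7% of all genes) and 13 lower (27.6%). Genes were called at an adjusted p under 0.05 in edgeR's quasi-likelihood F test, with Benjamini-Hochberg adjustment over the 15812 genes. All adjusted p-values given here come from that test. Those of fits on other sets of libraries, or without a filter, were adjusted over the genes of the fit named.

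The median log2 difference of the members, villin-PPARD minus WT, was 0.035, −0.12 and −0.255 at 10, 25 and 55 weeks, beside −0.03, −0.01 and 0.03 over all genes. Fabp5 and Aldh3a2 were higher at 10 and 25 weeks and lower at 55 weeks, and Acot1 was lower at 25 weeks and higher at 55 weeks. Fabp1, Pdk4, Cpt1a, Hadha, Hadhb and Acaa1a were called at no age. Falls at 55 weeks are relative to the scaling of the libraries. With library size alone the median of all genes shifted by 0.40 on the log2 scale, and 13 members were higher instead of 5. At 25 weeks that median shifted by 0.16, and 7 members instead of 13 were lower. Shares of all genes called with library size alone are not given here, so these member counts cannot be set against them. Under that scaling the log2 difference of Echs1 at 55 weeks changed sign. Those of Acaa1a, Acadl, Acads, Acadvl, Acsl3, Cpt1a, Cpt2, Eci2, Etfdh, Fabp1, Hadha, Hadhb, Pdk4 and Slc25a20, which were not called with TMM scaling, did so too. Of these, Acadl, Acadvl, Cpt1a, Eci2, Etfdh and Hadhb were then called higher, with log2 differences of 0.23 to 0.35. Acsl5 (0.53) and Ehhadh (0.44), positive under both scalings, were then called higher as well.

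**Figure D2:**
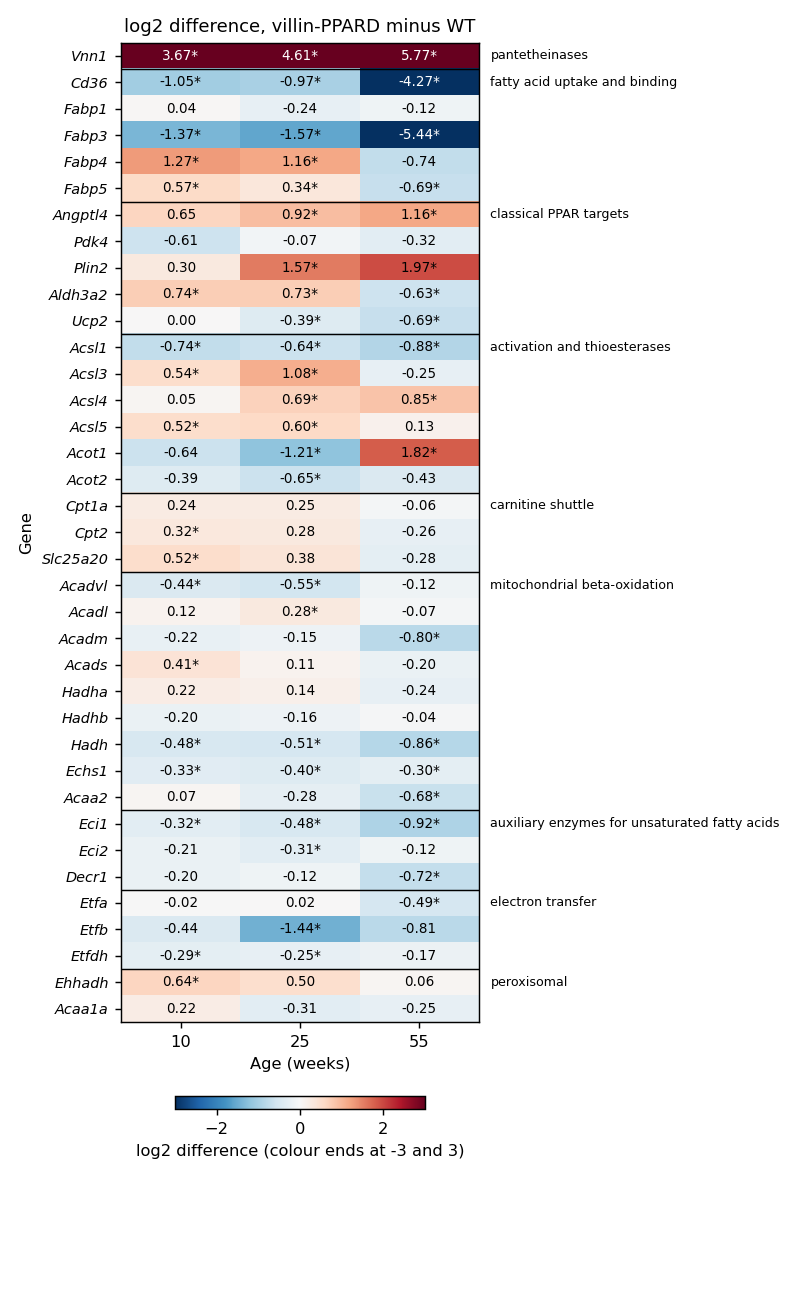
Log2 difference between villin-PPARD and WT mice at 10, 25 and 55 weeks for 37 members ordered by role, with an asterisk for an adjusted p under 0.05. Vnn1 stands at 3.67, 4.61 and 5.77, while Cd36 and Fabp3 reach −4.27 and −5.44 at 55 weeks.

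Promoters were searched for the direct repeat that PPARs bind. RefSeq promoter windows of GRCm38.p6, 250 bases before to 50 after a start site, matched 33 of the 39 genes. Angptl4, Fabp5, Acaa2, Vnn1, Decr1 and Fabp4 had no entry. A repeat of 2 copies of AGGTCA with 1 base between them, read on both strands, was in none of the 34 member windows and in 0.0396% of 32851 windows. At so low a share no match is the likely outcome in 34 windows, so the absence says nothing about the members. Bases outside these windows were not searched. The looser form, 2 copies of AGGNCA with 1 base between them, was in the window of Fabp1 alone among members and in 0.381% of all windows. A single AGGTCA, which such repeats contain, was in windows of 8 of the 33 genes and in 16.3% of all windows. The 250 bases before the start are shown for Fabp1, which holds the looser repeat and was called at no age, and for Cd36, which fell, and Plin2, which rose, each with a single AGGTCA at about the same distance. Capitals mark the matches, which stand on the opposite strand and so read as the reverse complement of AGGTCA or, in Fabp1, of the looser repeat. The Cd36 window lies inside the annotated span of the gene.
Fabp1 (chr6:71199629-71199878, plus strand): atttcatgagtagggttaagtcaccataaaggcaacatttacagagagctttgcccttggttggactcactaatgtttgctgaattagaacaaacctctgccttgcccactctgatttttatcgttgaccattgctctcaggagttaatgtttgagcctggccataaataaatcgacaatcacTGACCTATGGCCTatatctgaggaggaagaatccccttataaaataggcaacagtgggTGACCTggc
Cd36 (chr5:17835897-17836146, minus strand): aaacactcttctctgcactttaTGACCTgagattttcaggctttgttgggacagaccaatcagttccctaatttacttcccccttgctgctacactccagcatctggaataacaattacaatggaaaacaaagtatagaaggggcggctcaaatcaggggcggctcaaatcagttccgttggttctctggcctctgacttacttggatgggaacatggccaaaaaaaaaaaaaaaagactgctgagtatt
Plin2 (chr4:86670060-86670309, minus strand): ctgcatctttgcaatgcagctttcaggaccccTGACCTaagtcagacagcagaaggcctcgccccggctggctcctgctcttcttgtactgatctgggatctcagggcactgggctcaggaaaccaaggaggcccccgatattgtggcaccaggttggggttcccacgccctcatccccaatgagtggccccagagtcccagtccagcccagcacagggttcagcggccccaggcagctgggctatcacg
The matches begin at position −67 and −9 from the start site in Fabp1, −228 in Cd36 and −218 in Plin2. Of the 8 genes with a single AGGTCA, Cd36 and Echs1 were lower at all 3 ages, Acadvl at 10 and 25 weeks and Acadm at 55 weeks. Plin2 was higher at 25 and 55 weeks, Fabp1 and Cpt1a were called at no age, and Ucp3 was not tested. The windows shown were picked with these calls known. The relation of the matches to the calls was not tested.

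Vnn1 and Vnn3 encode pantetheinases, which split pantetheine into cysteamine and pantothenic acid, the vitamin that coenzyme A is built from. They lie near each other on the plus strand of chromosome 10, Vnn1 at 23894688 to 23905343 and Vnn3 at 23851462 to 23869843 (GRCm38). At 10 weeks Vnn1 had 65.4, 39.8, 49.0, 86.1 and 64.7 CPM in villin-PPARD mice, against 4.41, 5.36, 5.51, 4.12 and 4.37 CPM in WT mice. At 25 weeks Vnn1 had 120.1, 98.1, 40.6 and 185 CPM in villin-PPARD mice, against 5.69, 3.33, 4.57 and 4.26 CPM in WT mice. At 55 weeks Vnn1 had 523, 505, 475, 562 and 632 CPM in villin-PPARD mice, against 15.9, 7.91, 7.66, 8.19 and 9.23 CPM in WT mice. The genotypes did not overlap at any age, and villin-PPARD mice of 55 weeks lay above all other libraries. Vnn1 was 12.8-fold, 24.5-fold and 54.6-fold higher in villin-PPARD mice at 10, 25 and 55 weeks (log2 3.67 ± 0.30, 4.61 ± 0.35 and 5.77 ± 0.32, SE, adjusted p = 4.2e-10, 1.3e-10 and 3.1e-14). The difference was larger at 55 than at 10 weeks by 2.10 ± 0.40 on the log2 scale (adjusted p = 1.4e-04).

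Per kilobase of its principal transcript Vnn1 stood 34th of 39 members in WT mice of 10 weeks, at 1.97 ± 0.263 CPM per kb (SD, n = 5). In villin-PPARD mice of 55 weeks it stood first, at 223 ± 25.1 CPM per kb, ahead of Ucp2 at 172 ± 31.7 and Fabp5 at 169.5 ± 31.9 CPM per kb, which did not differ beyond their spread. Ucp2 and Fabp5 were the most abundant members in both genotypes at every other point. In WT mice Vnn1 was also higher at 55 than at 10 weeks (log2 1.05 ± 0.30, adjusted p = 0.023), a call lost without WT replicate 1 of 55 weeks or WT replicate 1 of 10 weeks, with log2 values down to 0.79. Vnn3 was far lower. It had 94, 16, 8, 139 and 94 counts in the 5 villin-PPARD libraries of 55 weeks, 0 counts in the 5 WT libraries of that age, and 3 counts in all other libraries together. Against a floor of 3 counts over the WT group, Vnn3 was at least 65.6-fold higher in villin-PPARD mice at 55 weeks.

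**Figure D3:**
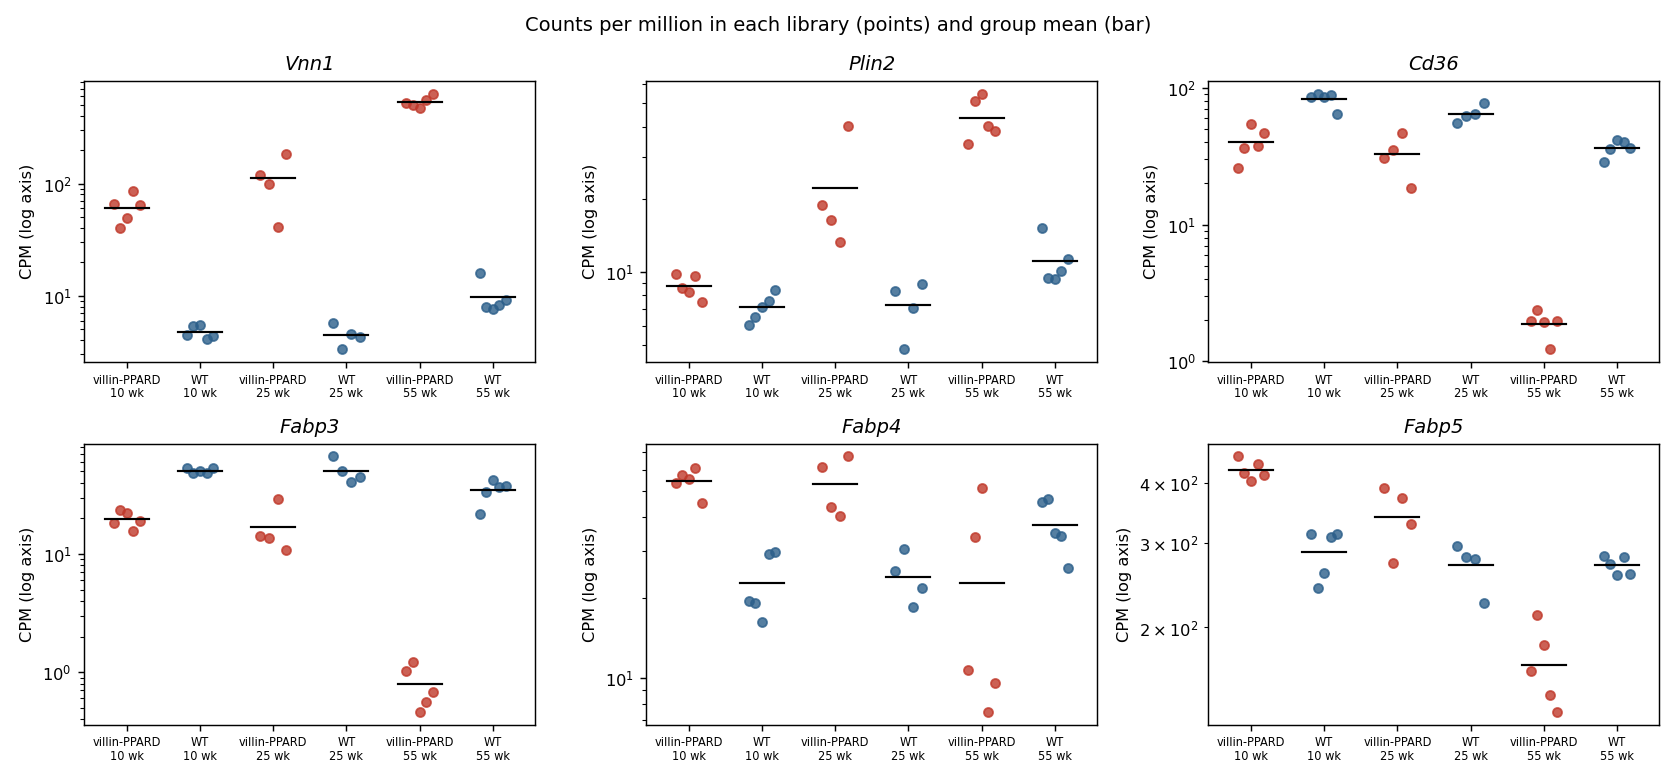
CPM of Vnn1, Plin2, Cd36, Fabp3, Fabp4 and Fabp5 in each library (points, log axes), villin-PPARD left of WT at each age, with a bar at the group mean. Vnn1 reached 475 to 632 CPM in villin-PPARD mice of 55 weeks, whereas Cd36 and Fabp3 lay at 1.23 to 2.37 and 0.462 to 1.23 CPM in the same libraries.

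Genes of fatty acid uptake and binding parted into those that fell and those that rose. Cd36 (chromosome 5, 17781690 to 17888801, minus strand) encodes a membrane receptor that takes up long-chain fatty acids. At 10 weeks Cd36 had 25.8, 36.1, 54.3, 37.5 and 46.3 CPM in villin-PPARD mice, against 84.9, 90.2, 85.9, 87.8 and 64.7 CPM in WT mice. At 25 weeks Cd36 had 30.8, 34.8, 47.0 and 18.6 CPM in villin-PPARD mice, against 55.5, 62.0, 64.2 and 76.7 CPM in WT mice. At 55 weeks Cd36 had 1.97, 2.37, 1.93, 1.23 and 1.96 CPM in villin-PPARD mice, against 28.7, 35.4, 41.6, 40.0 and 36.4 CPM in WT mice. Every villin-PPARD library lay below every WT library of its age. Cd36 was 2.07-fold, 1.96-fold and 19.2-fold lower in villin-PPARD mice at 10, 25 and 55 weeks (log2 −1.05 ± 0.18, −0.97 ± 0.20 and −4.27 ± 0.22, adjusted p = 7.3e-05, 5.4e-04 and 5.7e-15). It also fell with age in WT mice, by 1.19 on the log2 scale between 10 and 55 weeks (SE 0.18, adjusted p = 1.9e-04).

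Cd36 is also known from endothelial cells, macrophages and adipocytes. Of 12 endothelial markers tested, 1 was higher and 0 lower in villin-PPARD mice at 10 weeks (17.9% and 16.2% of all genes), 1 higher and 5 lower at 25 weeks (21% and 18.6%), and 3 higher and 3 lower at 55 weeks (31.7% and 27.6%). Summed over 13 genes, endothelial markers were 98.3 to 137 CPM in villin-PPARD and 45.4 to 95.8 CPM in WT mice of 10 weeks. At 25 weeks they were 70.3 to 133 CPM in villin-PPARD and 46.4 to 129 CPM in WT mice, and at 55 weeks 79.8 to 94.9 and 66.7 to 107 CPM. The sums were thus apart at 10 weeks, with villin-PPARD mice higher while Cd36 was lower, and overlapped at the other 2 ages. The sums did not stand for most of the list. At 10 weeks 7 of the 12 tested markers had negative and 5 positive log2 differences, with a median of −0.11 and a highest value of 3.92. At 25 weeks 11 were negative and 1 positive, with a median of −0.63 and a highest value of 4.36.

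Of 11 macrophage markers tested, 2 were higher and 0 lower at 10 weeks and likewise at 25 weeks, and 9 higher and 0 lower at 55 weeks, beside the same shares of all genes. Summed over 12 genes they were 85.5 to 102, 82.8 to 157 and 155 to 313 CPM in villin-PPARD mice of 10, 25 and 55 weeks, against 32.4 to 89.7, 48.0 to 132 and 102 to 117 CPM in WT mice, apart at 55 weeks.

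Of 10 adipocyte markers 4 were tested (Cidea, Cidec, Plin4 and Lipe). Of these, 2 were higher and 2 lower at 10 weeks (17.9% and 16.2% of all genes) and at 25 weeks (21% and 18.6%). At 55 weeks 1 was higher and 3 were lower (31.7% and 27.6%). Their sum was 56.4 to 76.4, 58.1 to 67.1 and 28.1 to 51.01 CPM in villin-PPARD mice of 10, 25 and 55 weeks, against 53.2 to 61.1, 52.97 to 78.0 and 64.0 to 80.45 CPM in WT mice, so that villin-PPARD mice lay below WT mice at 55 weeks. Most of it came from Cidec and Lipe. Retn and Cfd had 0 counts in every library, and Adipoq, Plin1 and Lep 0 to 2 counts in each group. Of 11 parietal cell markers tested, 10, 8 and 9 were lower at 10, 25 and 55 weeks (16.2%, 18.6% and 27.6% of all genes) and 0 higher. Their sums had medians of 10330, 7530 and 902 CPM in villin-PPARD and 17240, 13630 and 8992 CPM in WT mice. Sums of 6 surface (pit) cell genes overlapped at 10 weeks and lay below WT mice at 25 and 55 weeks. Of the 6 genes, 2 were higher and 0 lower at 10 weeks (17.9% and 16.2% of all genes). At 25 weeks 1 was higher and 1 lower (21% and 18.6%), and at 55 weeks 1 was higher and 4 lower (31.7% and 27.6%). At 25 weeks 4 of their log2 differences were negative and 2 positive, so that sum does not stand for every gene. The part of any of these cell types in the differences of Cd36 was not tested.

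Fabp3 (chromosome 4, 130308595 to 130315463, plus strand), the fatty acid-binding protein gene best known from heart and muscle, fell most of all members. At 10 weeks Fabp3 had 18.4, 23.6, 22.1, 15.8 and 18.9 CPM in villin-PPARD mice, against 53.5, 48.6, 50.2, 48.9 and 53.2 CPM in WT mice. At 25 weeks Fabp3 had 14.2, 13.6, 29.1 and 10.7 CPM in villin-PPARD mice, against 66.8, 50.1, 40.5 and 45.2 CPM in WT mice. At 55 weeks Fabp3 had 1.02, 1.23, 0.462, 0.559 and 0.679 CPM in villin-PPARD mice, against 21.9, 33.3, 42.7, 36.7 and 37.8 CPM in WT mice. Genotypes were apart at each age, and the 55-week libraries of villin-PPARD mice lay below every other library. Fabp3 was 2.58-fold, 2.96-fold and 43.5-fold lower in villin-PPARD mice (log2 −1.37 ± 0.21, −1.57 ± 0.23 and −5.44 ± 0.28, adjusted p = 1.3e-05, 1.0e-05 and 4.7e-15). Of 8 striated muscle markers 3 were tested (Acta1, Mylpf and Tnni2). Of these, 0 were called at 10 weeks, where 17.9% of all genes were higher and 16.2% lower. At 25 weeks 1 was higher and 1 lower (21% and 18.6%), and at 55 weeks 0 were higher and 2 lower (31.7% and 27.6%). Their sum was 28.2 to 36.4, 26.2 to 40.0 and 20.9 to 41.6 CPM in villin-PPARD mice of 10, 25 and 55 weeks, against 28.4 to 58.9, 48.8 to 61.0 and 50.7 to 128 CPM in WT mice, so that villin-PPARD mice lay below WT mice at 25 and 55 weeks. Most of it came from Tnni2, whereas Myh1 and Myh4 had 0 counts in every library and Ckm 0 to 6 counts in each group. The part of muscle in the fall of Fabp3 was not tested. Of 75-base windows of the Fabp3 transcript, 26.0% also occur in the pseudogene Fabp3-ps1, so some reads may have been divided between both.

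Fabp4 (chromosome 3, 10204088 to 10208576, minus strand) encodes the binding protein known from adipocytes, macrophages and capillary endothelium. At 10 weeks Fabp4 had 53.7, 57.4, 55.7, 60.9 and 45.1 CPM in villin-PPARD mice, against 19.4, 19.0, 16.2, 29.2 and 29.7 CPM in WT mice. At 25 weeks Fabp4 had 61.8, 43.5, 40.4 and 67.4 CPM in villin-PPARD mice, against 25.1, 30.5, 18.5 and 21.8 CPM in WT mice. At 55 weeks Fabp4 had 10.8, 33.6, 51.5, 7.49 and 9.62 CPM in villin-PPARD mice, against 45.5, 46.9, 34.8, 34.1 and 25.8 CPM in WT mice. Villin-PPARD mice lay above WT mice at 10 and 25 weeks, and at 55 weeks 3 of them lay below the WT range, 1 within it and 1 above it. Fabp4 was 2.42-fold and 2.23-fold higher at 10 and 25 weeks (log2 1.27 ± 0.37 and 1.16 ± 0.41, adjusted p = 0.0097 and 0.029), and its difference at 55 weeks missed the threshold (log2 −0.74 ± 0.37, adjusted p = 0.086). The 25-week call was lost without villin-PPARD replicate 1 or 4, or WT replicate 1, 3 or 4, where log2 values were 1.01 to 1.19. Fabp4 was thus higher at 10 weeks, where summed endothelial markers were higher in villin-PPARD mice without overlap, and at 25 weeks, where they overlapped. Most of the 12 endothelial markers tested had negative log2 differences at both ages, so these sums do not stand for the list. Macrophage markers overlapped at both ages and adipocyte markers did too, with the values given beside Cd36. The part of these cell types in the differences of Fabp4 was not tested.

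Fabp5 (chromosome 3, 10012548 to 10016607, plus strand), the epidermal binding protein, was the most abundant of the 4 binding protein members. At 10 weeks Fabp5 had 454, 418, 403, 438 and 416 CPM in villin-PPARD mice, against 313, 242, 259.7, 309 and 314 CPM in WT mice. At 25 weeks Fabp5 had 389.8, 272, 371 and 328 CPM in villin-PPARD mice, against 296, 280.3, 277 and 225 CPM in WT mice. At 55 weeks Fabp5 had 162, 212, 184, 145 and 134 CPM in villin-PPARD mice, against 281, 271, 258, 281 and 258 CPM in WT mice. WT mice stayed between 225 and 314 CPM at all ages, while villin-PPARD mice lay above them at 10 weeks, overlapped at 25 weeks and lay below them at 55 weeks. Fabp5 was 1.48-fold and 1.26-fold higher at 10 and 25 weeks and 1.61-fold lower at 55 weeks (log2 0.57 ± 0.11, 0.34 ± 0.13 and −0.69 ± 0.11, adjusted p = 2.9e-04, 0.035 and 5.6e-06). The 25-week call was lost without villin-PPARD replicate 1, 3 or 4, or WT replicate 3 or 4 (log2 0.26 to 0.35). The genotype difference changed by −1.26 ± 0.16 between 10 and 55 weeks (adjusted p = 3.1e-07). Fabp1, the liver form, averaged 1.42 ± 0.679, 1.14 ± 0.194 and 0.999 ± 0.879 CPM in villin-PPARD mice of 10, 25 and 55 weeks and 1.38 ± 0.191, 1.34 ± 0.585 and 1.08 ± 0.379 CPM in WT mice, with log2 differences between −0.24 and 0.04 that missed the threshold.

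Among classical PPAR targets, Plin2 and Angptl4 rose and Ucp2 fell. Plin2 (chromosome 4, 86648386 to 86670060, minus strand) encodes a coat protein of lipid droplets. At 10 weeks Plin2 had 9.83, 8.57, 8.24, 9.66 and 7.54 CPM in villin-PPARD mice, against 6.01, 6.52, 7.17, 7.61 and 8.40 CPM in WT mice. At 25 weeks Plin2 had 19.0, 16.4, 13.3 and 40.3 CPM in villin-PPARD mice, against 8.38, 4.79, 7.12 and 8.89 CPM in WT mice. At 55 weeks Plin2 had 33.9, 50.9, 54.8, 40.3 and 38.3 CPM in villin-PPARD mice, against 15.2, 9.46, 9.36, 10.1 and 11.3 CPM in WT mice. Libraries overlapped at 10 weeks and were apart at 25 and 55 weeks. Plin2 was 2.97-fold and 3.91-fold higher in villin-PPARD mice at 25 and 55 weeks (log2 1.57 ± 0.25 and 1.97 ± 0.22, adjusted p = 2.5e-05 and 1.2e-08), while the 10-week difference of 0.30 ± 0.23 missed the threshold (adjusted p = 0.32). Within villin-PPARD mice Plin2 rose between 10 and 25 weeks by 1.33 ± 0.23 on the log2 scale (adjusted p = 0.0057), the only member to do so, where 1.99% of all genes did.

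Angptl4 (chromosome 17, 33773750 to 33781830, minus strand) encodes a secreted inhibitor of lipoprotein lipase. At 10 weeks Angptl4 had 4.92, 4.62, 4.41, 5.53 and 3.80 CPM in villin-PPARD mice, against 2.77, 2.54, 3.01, 3.33 and 3.19 CPM in WT mice. At 25 weeks Angptl4 had 7.07, 7.36, 5.83 and 11.7 CPM in villin-PPARD mice, against 6.67, 3.33, 2.50 and 4.15 CPM in WT mice. At 55 weeks Angptl4 had 5.70, 10.9, 14.6, 4.84 and 6.92 CPM in villin-PPARD mice, against 3.40, 3.84, 3.21, 3.76 and 4.86 CPM in WT mice. The genotypes were apart at 10 weeks and overlapped at 25 and 55 weeks in 1 library of either side. Log2 differences were 0.65 ± 0.27, 0.92 ± 0.29 and 1.16 ± 0.25 (adjusted p = 0.056, 0.012 and 2.6e-04), so that Angptl4 rose at 25 and 55 weeks. Without villin-PPARD replicate 4 or WT replicate 3 the 25-week call was lost, at log2 0.67 and 0.73.

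Aldh3a2 (chromosome 11, 61223417 to 61267464, minus strand) encodes a fatty aldehyde dehydrogenase. At 10 weeks Aldh3a2 had 336, 299.6, 305, 314 and 317 CPM in villin-PPARD mice, against 216, 159.5, 155, 208 and 198 CPM in WT mice. At 25 weeks Aldh3a2 had 322, 280.5, 285 and 287 CPM in villin-PPARD mice, against 158, 190.0, 199.8 and 159.7 CPM in WT mice. At 55 weeks Aldh3a2 had 99.8, 138, 134, 95.7 and 105 CPM in villin-PPARD mice, against 208, 182, 159, 183 and 155 CPM in WT mice. The genotypes were apart at every age, with villin-PPARD mice above WT mice at 10 and 25 weeks and below them at 55 weeks. Log2 differences were 0.74 ± 0.11, 0.73 ± 0.13 and −0.63 ± 0.11 (adjusted p = 8.3e-06, 4.7e-05 and 1.8e-05), and the change between 10 and 55 weeks was −1.38 ± 0.16 (adjusted p = 5.8e-08).

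Ucp2, a mitochondrial carrier gene, averaged 684 ± 126 CPM in villin-PPARD mice of 55 weeks, against 1104 ± 57.0 CPM in WT mice (SD, n = 5 each), with no overlap and a log2 difference of −0.69 ± 0.13 (adjusted p = 3.9e-05). Its fall of 0.39 at 25 weeks (adjusted p = 0.031) was lost without villin-PPARD replicate 1, 2 or 4, or WT replicate 1 or 3 (log2 −0.38 to −0.32). Pdk4, which restrains pyruvate dehydrogenase and is a much used marker of PPAR delta activity, had log2 differences of −0.61 ± 0.28, −0.07 ± 0.30 and −0.32 ± 0.28 at 10, 25 and 55 weeks, none past the threshold (adjusted p = 0.089, 0.87 and 0.33). Pdk4 ranged over 6.10 to 10.2, 7.99 to 21.8 and 4.87 to 8.97 CPM in villin-PPARD mice and over 8.31 to 22.9, 11.3 to 19.8 and 7.20 to 13.4 CPM in WT mice, and thus overlapped at each age. Ucp3, the muscle relative of Ucp2, summed to 4, 6 and 10 counts in villin-PPARD mice of 10, 25 and 55 weeks, against 19, 11 and 9 counts in WT mice.

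**Figure D4:**
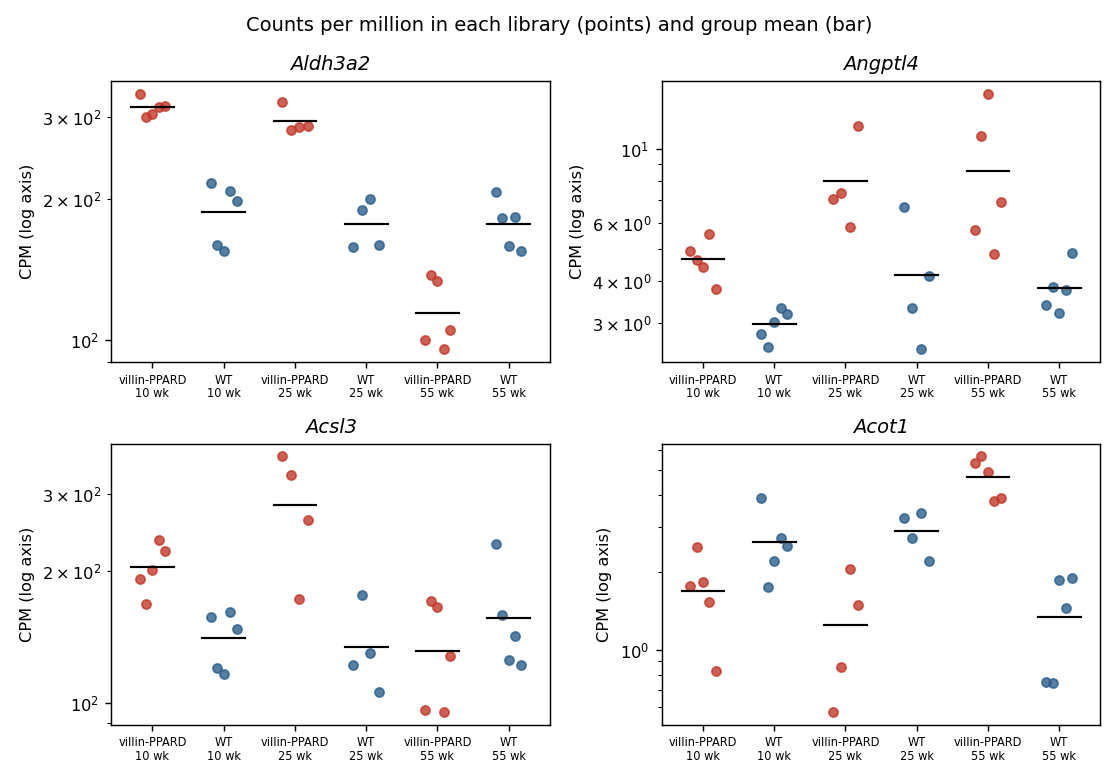
CPM of Aldh3a2, Angptl4, Acsl3 and Acot1 in each library (points, log axes), villin-PPARD left of WT at each age, with a bar at the group mean. Aldh3a2 of villin-PPARD mice lay at 280.5 to 336 CPM at 10 and 25 weeks and at 95.7 to 138 CPM at 55 weeks, while Acot1 lay above all WT libraries at 55 weeks.

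Acyl-CoA synthetases activate fatty acids, and the 4 members moved apart. Acsl1, the form linked to oxidation in heart and fat, fell at each age (log2 −0.74 ± 0.12, −0.64 ± 0.14 and −0.88 ± 0.12, adjusted p = 2.9e-05, 5.4e-04 and 4.5e-07), with 33.1 ± 3.29 CPM in villin-PPARD and 60.9 ± 6.97 CPM in WT mice of 55 weeks (SD, n = 5 each). Acsl4, which prefers arachidonate, rose at 25 and 55 weeks (log2 0.69 ± 0.18 and 0.85 ± 0.16, adjusted p = 0.0030 and 3.3e-05), to 11.9 to 17.4 CPM in villin-PPARD mice of 55 weeks, against 6.56 to 10.5 CPM in WT mice. Acsl5, the form abundant in intestine, rose at 10 and 25 weeks (log2 0.52 ± 0.09 and 0.60 ± 0.10, adjusted p = 7.3e-05 and 5.3e-05) and had a log2 difference of 0.13 ± 0.09 at 55 weeks (adjusted p = 0.22).

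Acsl3 (chromosome 1, 78657825 to 78707743, plus strand) encodes a synthetase of the endoplasmic reticulum and of lipid droplets. At 10 weeks Acsl3 had 192, 168, 201, 236 and 223 CPM in villin-PPARD mice, against 157, 120.2, 116, 161 and 148 CPM in WT mice. At 25 weeks Acsl3 had 366, 332, 173 and 262 CPM in villin-PPARD mice, against 122, 177, 130.2 and 106 CPM in WT mice. At 55 weeks Acsl3 had 96.1, 171, 166, 95.4 and 128 CPM in villin-PPARD mice, against 231, 159, 126, 142 and 122 CPM in WT mice. Libraries were apart at 10 weeks, touched at 25 weeks through 1 library of each genotype and overlapped at 55 weeks. Acsl3 was 1.45-fold and 2.12-fold higher at 10 and 25 weeks (log2 0.54 ± 0.20 and 1.08 ± 0.23, adjusted p = 0.038 and 4.8e-04), against a log2 difference of −0.25 ± 0.20 at 55 weeks (adjusted p = 0.29). The 10-week call was lost without villin-PPARD replicate 1, 3, 4 or 5, or WT replicate 2 or 3 (log2 0.45 to 0.56), without a filter (adjusted p = 0.062) and with WT replicates 2 and 3 summed (adjusted p = 0.093).

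Acot1 (chromosome 12, 84009490 to 84018371, plus strand) and Acot2 (chromosome 12, 83987861 to 83993873, plus strand) encode the cytosolic and the mitochondrial acyl-CoA thioesterase, which release the fatty acid again. At 10 weeks Acot1 had 1.76, 2.52, 1.83, 1.54 and 0.826 CPM in villin-PPARD mice, against 3.90, 1.75, 2.21, 2.71 and 2.52 CPM in WT mice. At 25 weeks Acot1 had 0.573, 0.856, 2.06 and 1.49 CPM in villin-PPARD mice, against 3.24, 2.71, 3.39 and 2.21 CPM in WT mice. At 55 weeks Acot1 had 5.30, 5.64, 4.93, 3.80 and 3.89 CPM in villin-PPARD mice, against 0.751, 0.739, 1.87, 1.45 and 1.91 CPM in WT mice. Villin-PPARD mice overlapped WT mice at 10 weeks, lay below them at 25 weeks and above them at 55 weeks. Acot1 was 2.32-fold lower at 25 weeks and 3.53-fold higher at 55 weeks (log2 −1.21 ± 0.34 and 1.82 ± 0.30, adjusted p = 0.0061 and 4.8e-06), and the change between these ages was 3.03 ± 0.45 (adjusted p = 7.3e-06). Within 10-week replicates 4 and 5, the library group that the 55-week mice share, its 10-week difference was −1.12 (adjusted p = 0.014), against −0.38 within replicates 1 to 3 (adjusted p = 0.39).

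Of 75-base windows in the principal transcript of Acot1, 26.4% also occur in that of Acot2, so their counts may be divided wrongly. Acot2 had log2 differences of −0.39 ± 0.21, −0.65 ± 0.25 and −0.43 ± 0.22 (adjusted p = 0.15, 0.038 and 0.086) and thus did not follow Acot1 at 55 weeks. Its fall at 25 weeks became −1.11 without villin-PPARD replicate 3 and was lost, at −0.61 to −0.50, without villin-PPARD replicate 1, 2 or 4, or WT replicate 1 or 3.

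Of the 3 carnitine shuttle genes, 2 rose at 10 weeks, where 17.9% of all genes did, and the call of 1 of them, Cpt2, was lost in 4 of 10 fits without a library. Slc25a20, the carrier of acylcarnitine across the inner membrane, rose at 10 weeks (log2 0.52 ± 0.14, adjusted p = 0.0052), as did Cpt2, which hands the acyl group back to coenzyme A (log2 0.32 ± 0.11, adjusted p = 0.030). The Cpt2 call was lost without villin-PPARD replicate 1 or 2, or WT replicate 2 or 3 (log2 0.25 to 0.31), and was 0.12 within replicates 4 and 5. Cpt1a, the rate-limiting transferase of the outer membrane, had 415 ± 16.4, 375 ± 67.6 and 266 ± 31.3 CPM in villin-PPARD mice of 10, 25 and 55 weeks, against 350.0 ± 52.5, 315 ± 41.4 and 277 ± 38.4 CPM in WT mice, and missed the threshold at each age (log2 0.24 ± 0.12, 0.25 ± 0.13 and −0.06 ± 0.12). At 55 weeks none of the 3 genes was called, and all 3 log2 differences lay between −0.28 and −0.06, which turned positive with library size alone. Genotype differences of Slc25a20 and Cpt2 changed by −0.80 ± 0.20 and −0.57 ± 0.16 between 10 and 55 weeks (adjusted p = 0.0020 and 0.0054).

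**Figure D5:**
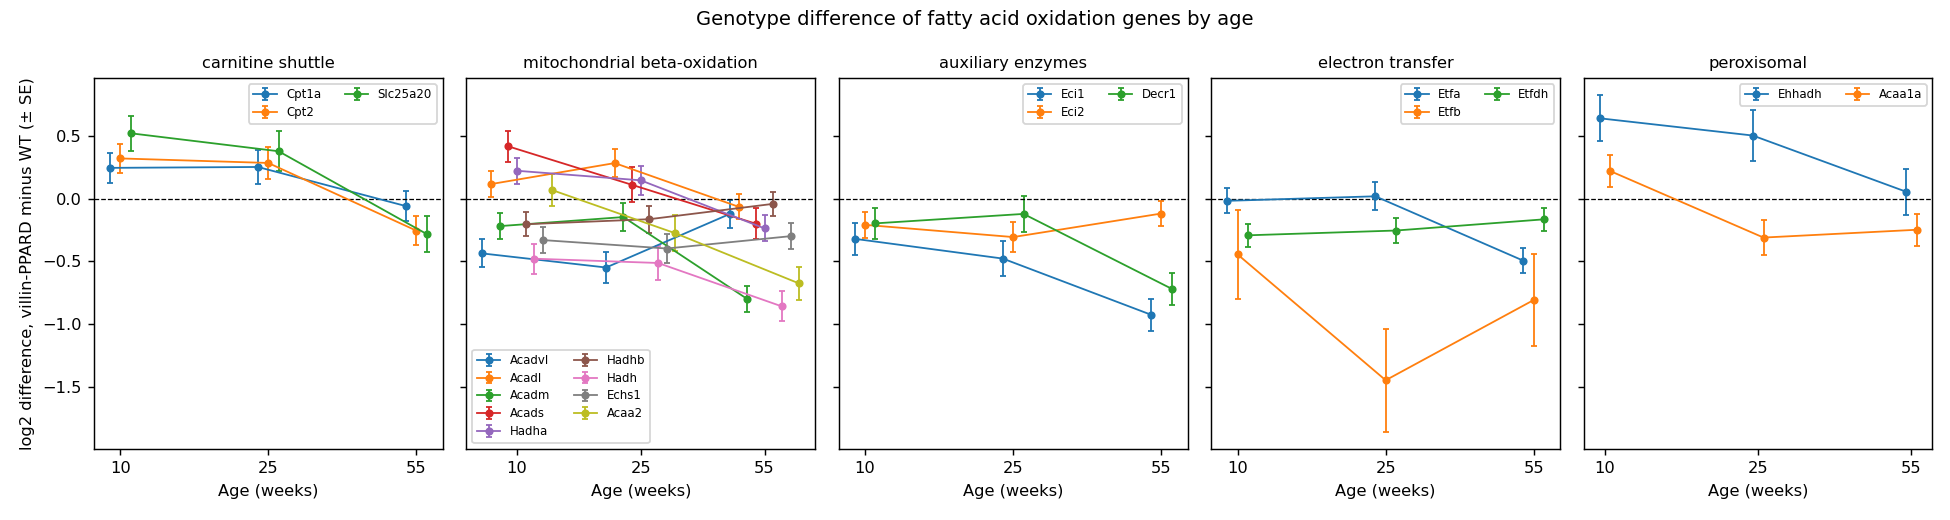
Log2 difference between villin-PPARD and WT mice (± SE) at 10, 25 and 55 weeks for genes of the carnitine shuttle, mitochondrial beta-oxidation, auxiliary enzymes, electron transfer and peroxisomes. At 55 weeks Ehhadh, at 0.06, is the only gene plotted above 0, a position that 12 more of these genes take when library size alone is used for scaling.

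Mitochondrial beta-oxidation shifted by small amounts and unequally along the cycle. At the acyl-CoA dehydrogenases, which differ in chain length, Acadvl (very long chains) fell at 10 and 25 weeks (log2 −0.44 ± 0.11 and −0.55 ± 0.12, adjusted p = 0.0032 and 0.0010), and the 25-week value was −0.34 without WT replicate 1. Acads (short chains) rose at 10 weeks (log2 0.41 ± 0.12, adjusted p = 0.010), and Acadl (long chains) rose at 25 weeks (log2 0.28 ± 0.11, adjusted p = 0.048). Acadm (medium chains) fell at 55 weeks, with 36.0, 53.1, 45.4, 36.7 and 42.6 CPM in villin-PPARD mice, against 79.7, 71.8, 77.3, 74.2 and 68.5 CPM in WT mice, which did not overlap (log2 −0.80 ± 0.10, adjusted p = 9.9e-08). The Acadl call was lost without any one of the villin-PPARD libraries or WT replicate 3 or 4 (log2 0.24 to 0.30). Exons of Acadvl share 42.9% of their bases with Dvl2 on the other strand, which these libraries cannot separate.

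Later steps of the cycle fell or missed the threshold, and none rose. Hadh, the short-chain hydroxyacyl-CoA dehydrogenase, fell at each age (log2 −0.48 ± 0.12, −0.51 ± 0.13 and −0.86 ± 0.12, adjusted p = 0.0025, 0.0031 and 3.8e-07), with 45.3 to 64.1 CPM in villin-PPARD mice of 55 weeks, against 91.4 to 106 CPM in WT mice. Echs1, the short-chain hydratase, fell by 0.33, 0.40 and 0.30 on the log2 scale (adjusted p = 0.014, 0.0078 and 0.014), although the 55-week difference was 0.10 with library size alone. Acaa2, the thiolase, fell at 55 weeks (log2 −0.68 ± 0.13, adjusted p = 4.9e-05). Hadha and Hadhb, the subunits of the trifunctional protein for long chains, had log2 differences between −0.24 and 0.22 that missed the threshold at each age. Of Hadhb windows, 57.2% also occur in the pseudogene Gm13910.

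Within 10-week replicates 1 to 3, Hadh, Echs1 and Acadvl missed the threshold (log2 −0.34, −0.26 and −0.36), as did Eci1 and Etfdh (log2 −0.30 and −0.16), whereas Hadh, Echs1 and Acadvl passed it within replicates 4 and 5 (log2 −0.70, −0.45 and −0.57). Rises of Slc25a20, Fabp4 and Ehhadh were smaller within replicates 4 and 5, at log2 0.30, 0.85 and 0.41, and Acads missed the threshold there at 0.15. Over all members, 11 were higher and 3 lower within replicates 1 to 3, where 13.7% and 12.2% of all genes tested were, and 8 were higher and 15 lower within replicates 4 and 5, where 17.9% and 15.9% were.

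Among the auxiliary enzymes, which prepare unsaturated fatty acids for the cycle, Eci1 and Decr1 fell at 55 weeks. Eci1, an enoyl-CoA isomerase, had 21.4, 24.2, 22.9, 19.3 and 19.3 CPM in villin-PPARD mice of 55 weeks, against 32.5, 34.1, 46.0, 43.1 and 47.6 CPM in WT mice, without overlap. Its log2 differences were −0.32 ± 0.13, −0.48 ± 0.14 and −0.92 ± 0.13 (adjusted p = 0.049, 0.0085 and 3.9e-07). The 10-week call of Eci1 was lost without any single library other than villin-PPARD replicate 2 (log2 −0.35 to −0.28), and the 25-week call without WT replicate 1 (log2 −0.32). Decr1, the dienoyl-CoA reductase, fell at 55 weeks (log2 −0.72 ± 0.12, adjusted p = 1.4e-05). Eci2 was called at 25 weeks (log2 −0.31 ± 0.12, adjusted p = 0.036), which was lost without villin-PPARD replicate 1, 2 or 4 or WT replicate 1 or 4 (log2 −0.31 to −0.14).

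Electron transfer genes pass electrons of the dehydrogenases on. Etfa, the alpha subunit of electron-transferring flavoprotein, fell at 55 weeks (log2 −0.49 ± 0.10, adjusted p = 9.0e-05; −0.10 and not called with library size alone), and Etfdh, its dehydrogenase, at 10 and 25 weeks (log2 −0.29 ± 0.09 and −0.25 ± 0.10, adjusted p = 0.014 and 0.048). The 25-week call of Etfdh was lost without villin-PPARD replicate 1 or 4 or any WT library (log2 −0.28 to −0.21), and with no filter both its calls were lost (adjusted p = 0.066 and 0.14). At 10 weeks Etfb (chromosome 7, 43444083 to 43457800, plus strand), the beta subunit, had 8.32, 7.20, 7.44, 6.94 and 6.16 CPM in villin-PPARD mice, against 13.8, 7.32, 9.46, 8.34 and 9.99 CPM in WT mice. At 25 weeks Etfb had 2.44, 1.94, 9.38 and 2.23 CPM in villin-PPARD mice, against 13.9, 6.25, 11.7 and 12.4 CPM in WT mice. At 55 weeks Etfb had 4.16, 4.78, 6.12, 3.73 and 2.64 CPM in villin-PPARD mice, against 2.90, 4.21, 10.9, 9.19 and 10.3 CPM in WT mice. The genotypes overlapped at each age, at 25 weeks through villin-PPARD replicate 3. Etfb was 2.72-fold lower at 25 weeks (log2 −1.44 ± 0.41, adjusted p = 0.0072), and the log2 difference was −2.36 without villin-PPARD replicate 3. Differences at 10 and 55 weeks missed the threshold (log2 −0.44 ± 0.35 and −0.81 ± 0.36, adjusted p = 0.35 and 0.059). Of the exon bases of Etfb, 58.2% are shared with other genes, mostly Gm45233 on the same strand, so its low counts are uncertain.

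Of the peroxisomal members, Ehhadh, the bifunctional enzyme and a classical PPAR alpha target in rodent liver, rose at 10 weeks to 98.0 ± 8.04 CPM in villin-PPARD mice, against 63.1 ± 17.9 CPM in WT mice (log2 0.64 ± 0.18, adjusted p = 0.0082). At 25 and 55 weeks Ehhadh missed the threshold (log2 0.50 ± 0.20 and 0.06 ± 0.18, adjusted p = 0.052 and 0.81). Acaa1a, the peroxisomal thiolase, had log2 differences of 0.22 ± 0.13, −0.31 ± 0.14 and −0.25 ± 0.13, none past the threshold, and shares 27.3% of its windows with Acaa1b.

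With age, the members changed mainly in villin-PPARD mice between 10 and 55 weeks. In these mice 5 members rose (Vnn1, Angptl4, Plin2, Acsl4 and Acot1), where 27.2% of all genes did, and 25 fell, where 24.5% did. In WT mice 1 rose (6.43% of all genes) and 8 fell (6.26%): Cd36, Acsl1, Acot1, Acadvl, Acadm, Hadhb, Eci1 and Etfdh. Leaving out 10-week replicates 1 to 3, so that both ages came from 1 library group, left 0 higher and 3 lower in WT mice. That fit kept fewer WT libraries of 10 weeks, which can cost calls over all genes. The share of all genes called in that fit is not given here, so these counts cannot be set against it. Between 10 and 25 weeks Plin2 rose and Acaa1a fell in villin-PPARD mice (1.99% and 0.822% of all genes), and 0 members were called in WT mice (0.0126% of all genes higher, 0% lower) by edgeR or by DESeq2, with 0 of 38 at an unadjusted p under 0.05. The Acaa1a call was lost in 5 of 9 fits that left out 1 library.

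The largest falls in villin-PPARD mice between 10 and 55 weeks were those of Fabp3 (log2 −4.64 ± 0.27, adjusted p = 1.1e-13) and Cd36 (log2 −4.41 ± 0.22, adjusted p = 4.9e-15). All 3 genes of the carnitine shuttle fell, with log2 values between −0.80 and −0.64, as did 7 of 9 of beta-oxidation and both peroxisomal genes. With library size alone, the falls of Acsl3, Cpt1a, Acadl, Acads, Hadh, Decr1, Ehhadh and Acaa1a missed the threshold, and Acsl5, Hadhb and Etfdh changed direction.

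The test of the change in genotype difference between 10 and 55 weeks called 4 members higher (18.4% of all genes) and 18 lower (18.0%), and between 25 and 55 weeks 2 higher (14.3%) and 12 lower (14.6%). These comparisons share the 55-week libraries. Between 10 and 25 weeks 0 members were called by edgeR (0% of all genes higher, 0.00632% lower), where 5 had an unadjusted p under 0.05, and 1 by DESeq2. The strongest of the changes to 55 weeks were Fabp3 at −4.08 ± 0.34, Cd36 at −3.22 ± 0.28 and Acot1 at 2.46 ± 0.42 on the log2 scale (adjusted p = 6.3e-10, 1.0e-09 and 2.5e-05). With 10-week replicates 1 to 3 left out, 5 members instead of 18 were called lower. That fit kept only replicates 4 and 5 of each genotype at 10 weeks. Fewer libraries can cost calls over all genes, whose share in that fit is not given here.

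Beyond the 39 genes, 79 further genes of fatty acid transport, oxidation, ketogenesis and lipid droplets were listed, of which 62 were tested. At 10 weeks 7 were higher and 23 lower in villin-PPARD mice (17.9% and 16.2% of all genes), at 25 weeks 6 and 29 (21% and 18.6%), and at 55 weeks 12 and 35 (31.7% and 27.6%). Their median log2 difference was −0.19, −0.29 and −0.35, beside −0.03, −0.01 and 0.03 over all genes. Cidea, a lipid droplet gene, rose at each age (log2 2.11 ± 0.41, 2.76 ± 0.44 and 1.46 ± 0.35, adjusted p = 2.3e-04, 2.5e-05 and 6.8e-04), with 6.63 ± 3.70 CPM in villin-PPARD and 2.35 ± 0.720 CPM in WT mice of 55 weeks.

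Lpl, the lipoprotein lipase that Angptl4 inhibits, had 119 ± 23.6, 101 ± 36.6 and 9.61 ± 1.32 CPM in villin-PPARD mice of 10, 25 and 55 weeks, against 302 ± 45.6, 268 ± 36.9 and 168 ± 23.8 CPM in WT mice (log2 −1.35 ± 0.17, −1.41 ± 0.19 and −4.13 ± 0.19, adjusted p = 4.5e-07, 1.5e-06 and 2.0e-16). Mgll, the monoglyceride lipase, fell by 0.61, 1.23 and 1.94 and Lipe, the hormone-sensitive lipase, by 0.55, 0.79 and 1.91 on the log2 scale. The lipid droplet genes Plin4 (log2 −1.08, −1.50 and −2.45) and, at 10 and 25 weeks, Plin5 (log2 −1.60 and −1.61) fell as well. Ppargc1a, a coactivator of mitochondrial genes, fell at 10 and 55 weeks (log2 −0.75 ± 0.17 and −2.08 ± 0.19). Slc27a2, a very long-chain fatty acid transporter and synthetase, had 1 count in the villin-PPARD libraries of 55 weeks, against 155 counts in the WT libraries, a WT to villin-PPARD ratio of 276 with a 95% counting interval of 48.9 to 10989.

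Acacb, which makes the inhibitor of Cpt1a, fell at 25 and 55 weeks (log2 −0.78 ± 0.18 and −2.89 ± 0.17, adjusted p = 0.0012 and 2.6e-14). Acadsb, a dehydrogenase of branched acyl-CoA, fell at each age (log2 −0.95, −0.57 and −2.03). Aldh3a1 was lower at 55 weeks alone among the ages tested (log2 −2.21 ± 0.14, adjusted p = 3.2e-14), at 104 ± 14.5 CPM in villin-PPARD and 481 ± 28.1 CPM in WT mice. Fabp2, the intestinal binding protein, fell at 55 weeks (log2 −1.50 ± 0.26, adjusted p = 1.5e-05), and Cyp4a32, of a family of fatty acid hydroxylases, at 10 and 25 weeks (log2 −1.97 ± 0.43 and −1.47 ± 0.47, adjusted p = 9.0e-04 and 0.014).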

How the data were processed

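Polyadenylated RNA of 28 samples was sequenced in 75-base read pairs, per the labels' protocols, and the kit they name (TruSeq RNA v2) keeps no strand information. The submitters' processing notes name TopHat2 2.0.14, HTSeq 0.6.1, DESeq2 and the mm10 build. The deposited table holds raw read counts per gene, 49492 genes by 28 libraries, with totals of 10982888 to 30891108, made by the authors. Libraries were grouped by genotype and age from the labels, and library groups were read from column names. Reads carry no molecular identifiers, so floors and intervals cover counting error only.

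Counts were analysed in R 4.3.3 with edgeR 4.0.16: genes were filtered by group (filterByExpr), scaled by trimmed mean of M-values (TMM), and fitted as 6 group means with robust quasi-likelihood dispersions, from which 10 contrasts were taken with Benjamini-Hochberg adjustment over 15812 genes. This fit was tested on simulated counts. CPM are read counts divided by the library's total over tested genes times its TMM factor, in edgeR's usual unit. Values in every library are given for members called between genotypes with a log2 difference of at least 1, and for the 4 with the lowest adjusted p in a change of the genotype difference; genes of the wider list are named from a log2 difference of 1.5. Acadm and Eci1 at 55 weeks are also given by library, chosen after their values were seen. The members and lists were chosen with earlier results of these data known. Alternatives were DESeq2 1.42.0 size factors and Wald test, library size alone, no filter, a replicate block, fits of the groups compared alone, library groups apart, and each library left out. Transcripts and positions come from a GRCm38 annotation (GENCODE M21), promoters from RefSeq (GRCm38.p6). Same-numbered libraries of an age did not deviate together, so the numbers were not taken as pairs. A pairwise comparison of protein sequences within the Fabp, Vnn and Acot members was planned and is not used here.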

Additional observations from a re-analysis of the deposited data

Results flagged for a closer look

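In 68 groups of 4 or 5 libraries, 4 single libraries of the members described stood apart by Dixon's test, and chance marks about 1 group in 20. Vnn1 had 15.9 CPM in WT replicate 1 of 55 weeks, above the other WT libraries of that age. Cd36 had 64.7 CPM in WT replicate 5 of 10 weeks, the lowest of its group. Aldh3a2 had 322.5 CPM in villin-PPARD replicate 1 of 25 weeks, the highest of its group. Etfb had 9.38 CPM in villin-PPARD replicate 3 of 25 weeks, the highest of its group.

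The genotype difference differed between ages by the interaction test of edgeR. Between 55 and 10 weeks the villin-PPARD minus WT difference was larger at 55 weeks, with the log2 change in parentheses, for Vnn1 (2.10), Plin2 (1.66), Acsl4 (0.80) and Acot1 (2.46). It was smaller or more negative at 55 weeks for Cd36 (−3.22), Fabp3 (−4.08), Fabp4 (−2.01), Fabp5 (−1.26), Aldh3a2 (−1.38), Ucp2 (−0.69), Acsl3 (−0.79), Acsl5 (−0.39), Cpt2 (−0.57), Slc25a20 (−0.80), Acadm (−0.58), Acads (−0.61), Hadha (−0.46), Acaa2 (−0.74), Eci1 (−0.60), Decr1 (−0.52), Etfa (−0.47) and Acaa1a (−0.47).

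Between 55 and 25 weeks the same difference was larger at 55 weeks for Vnn1 (1.16) and Acot1 (3.03), and smaller or more negative for Cd36 (−3.29), Fabp3 (−3.88), Fabp4 (−1.90), Fabp5 (−1.02), Aldh3a2 (−1.36), Acsl3 (−1.33), Acsl5 (−0.47), Cpt2 (−0.54), Slc25a20 (−0.66), Acadm (−0.65), Decr1 (−0.59) and Etfa (−0.51). These changes share the 55-week libraries with the ones above. Leaving out 1 library at a time ended the call of Vnn1 between 55 and 25 weeks in 12 of 18 fits, of Acsl3 between 55 and 10 weeks in 6 of 20, of Acaa1a between 55 and 10 weeks in 10 of 20, and of Slc25a20 between 55 and 25 weeks in 1 of 18.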

How the results depend on the processing

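Counts of members here include Vnn3, which passed the filter only through villin-PPARD mice of 55 weeks, so that its calls there carry no weight. Without Vnn3, 5 instead of 6 members were higher at 55 weeks in the main fit, and 13 instead of 14 with library size alone. Shares of all genes are not given for most of these fits, and fits with fewer libraries can lose calls over all genes. Among values of single members, 2018 of 2158 counted as unchanged when 1 library was left out. A called value counted if it kept direction and call, an uncalled one if it stayed uncalled and moved by less than its SE. No call reversed. Uncalled values near 0 could change sign and still count, as did that of Fabp1 at 10 weeks (log2 −0.21 to 0.24). With library size alone as scaling, 7 members were lower at 25 weeks, 14 higher at 55 weeks, 4 higher between 10 and 25 weeks and 14 lower between 10 and 55 weeks in villin-PPARD mice, 2 higher between 10 and 55 weeks in WT mice, and the genotype difference changed upward in 9 and downward in 6 to 55 from 10 weeks and downward in 7 from 25 weeks. At 55 weeks it reversed Cpt1a (0.33), Acadvl (0.28), Acadl (0.33), Hadhb (0.35), Echs1 (0.10), Eci2 (0.29) and Etfdh (0.23), and between 10 and 55 weeks in villin-PPARD mice Acsl5 (0.08), Hadhb (0.022) and Etfdh (0.17). The cause was not tested. Without a filter, 0 members rose with age in WT mice and 1 change between 25 and 55 weeks was upward. By DESeq2, 3 rose and 3 fell between 10 and 25 weeks in villin-PPARD mice, 2 rose between 10 and 55 weeks in WT mice, and 1 and 4 changes were upward to 25 from 10 and to 55 from 25 weeks. Within 10-week replicates 1 to 3, 3 members were lower at 10 weeks, and within replicates 4 and 5, 15. With replicates 4 and 5 left out, 0 fell between 10 and 25 weeks in villin-PPARD mice. With replicates 1 to 3 left out, 0 rose and 3 fell between 10 and 55 weeks in WT mice, and 5 changes to 55 weeks were downward. Leaving out 1 library gave 8 to 10 higher and 7 to 9 lower at 10 weeks, 6 to 11 higher and 8 to 15 lower at 25 weeks, and 5 to 6 higher and 13 to 21 lower at 55 weeks. With age in villin-PPARD mice, 1 to 5 rose and 0 to 6 fell to 25 weeks, and 5 to 6 rose and 24 to 27 fell to 55 weeks. In WT mice 0 to 1 rose and 5 to 10 fell to 55 weeks, and 0 to 25 weeks. Changes of the genotype difference numbered 0 to 1 upward between 10 and 25 weeks, 4 upward and 16 to 20 downward between 10 and 55 weeks, and 1 to 4 upward and 11 to 14 downward between 25 and 55 weeks. The count at 25 weeks was 6 higher without villin-PPARD replicate 4 or WT replicate 3 and 8 lower without WT replicate 1, and at 55 weeks 21 lower without villin-PPARD replicate 3. Without villin-PPARD replicate 3 of 25 weeks, 5 rose and 6 fell between 10 and 25 weeks.

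With the replicate block, 11 members were higher and 6 lower at 10 weeks, 8 higher and 11 lower at 25 weeks, and 6 higher and 14 lower at 55 weeks. In that fit 4 changes of the genotype difference to 55 from 10 weeks were upward and 18 downward. The share of all genes called with the block is not given here, so these counts cannot be set against it. Deviations of same-numbered libraries had correlations of −0.21 to 0.24 in the 10-week libraries, −0.15 to 0.02 in those of 25 weeks and −0.49 to −0.07 in those of 55 weeks, so the numbers were not taken as pairs. Depth limits Ucp3 and Vnn3, whose counts were near 0 in most groups.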
